A study of Rattus norvegicus with 8 samples.

Results

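The endoplasmic reticulum (ER) chaperones, the unfolded protein sensors and the ATF4 targets were followed here as 35 named genes, chosen by symbol. A row with the symbol was present for 33 of them in each of the deposited tables, among 14295 genes for the precursor cells and 18236 for the adipocytes, and the expression of Ppp1r15a and Nupr1 was not analysed here. The 33 comprised 16 chaperones and folding factors, 5 genes of ER-associated degradation, 5 sensors and transcription factors, and 7 targets of ATF4 and CHOP. The cells came from wild-type Wistar rats that ate a control diet (C) or a diet high in fat and sucrose (HFS) for 6 months. Adipose-derived stem cells (ASC), the precursors of fat cells, were isolated with collagenase from the inguinal fat depot and grown in culture. Adipocytes (AD) were obtained from such cells in both diet arms with induction medium for 3 days (insulin at 10.0 µg/mL, dexamethasone at 5.0 µM and the phosphodiesterase inhibitor 3-isobutyl-1-methylxanthine at 0.5 mM) and maintenance medium with insulin for 7 days. The 8 RNA libraries fall into the groups ASC_C, ASC_HFS, AD_C and AD_HFS, with 2 in each. Neither the source of the paired libraries (other rats or other cultures) nor the age at which the diet began is given in the labels, so each p measures only the spread between these samples.

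Proteins that enter the secretory pathway fold in the ER with the help of chaperones such as BiP (the product of Hspa5), lectin chaperones and disulfide isomerases. When unfolded proteins build up, BiP leaves 3 membrane sensors, IRE1 (Ern1), ATF6 and PERK (Eif2ak3). Cleaved ATF6 and the spliced form of XBP1 raise transcription of chaperone and degradation genes, and PERK, by slowing translation, favours synthesis of the transcription factor ATF4, which raises CHOP (Ddit3) and genes of amino acid supply. Fat cell precursors secrete collagen and other matrix proteins, and adipocytes secrete hormones such as adiponectin, so both carry a large load on this pathway. Gene counts see neither the cleavage of ATF6, nor the splicing of Xbp1, nor the translation of Atf4.

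The promoters of the family are shown because several of its genes share a sequence element through which ATF6 and XBP1 are known to act. The 250 bases before the annotated start of 7 members are printed 5′ to 3′ along the gene, from RefSeq on the build GRCr8, which is not the build of the counts. Capitals mark the ER stress response element (ERSE), spelled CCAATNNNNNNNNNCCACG, in Hspa5, Hsp90b1, Calr, Creld2 and Xbp1. In Herpud1 they mark the related ERSE-II, spelled ATTGGNCCACG, and the ATF4 element (CARE), spelled TGATGNAA, and in Trib3 the ATF4 element alone. Each was searched on both strands, and a match on the other strand appears as its reverse complement.
Hspa5, chr3:38452766-38453015, forward strand: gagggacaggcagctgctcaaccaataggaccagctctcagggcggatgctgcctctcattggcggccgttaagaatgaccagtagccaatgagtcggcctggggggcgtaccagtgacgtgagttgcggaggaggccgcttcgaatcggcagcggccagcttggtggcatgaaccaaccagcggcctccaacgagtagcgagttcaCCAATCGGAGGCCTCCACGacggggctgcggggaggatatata
Hsp90b1, chr7:23012294-23012543, reverse strand: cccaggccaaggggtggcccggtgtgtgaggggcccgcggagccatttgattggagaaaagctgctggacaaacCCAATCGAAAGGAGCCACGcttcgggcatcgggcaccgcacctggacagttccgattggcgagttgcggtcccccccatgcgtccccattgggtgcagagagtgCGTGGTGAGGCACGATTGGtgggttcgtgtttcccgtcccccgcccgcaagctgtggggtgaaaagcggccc
Calr, chr19:40213117-40213366, forward strand: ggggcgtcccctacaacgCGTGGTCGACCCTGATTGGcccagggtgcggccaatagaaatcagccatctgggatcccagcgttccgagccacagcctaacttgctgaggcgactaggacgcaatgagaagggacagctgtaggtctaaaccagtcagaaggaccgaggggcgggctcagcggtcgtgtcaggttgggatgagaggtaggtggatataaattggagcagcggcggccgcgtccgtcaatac
Creld2, chr7:121789134-121789383, forward strand: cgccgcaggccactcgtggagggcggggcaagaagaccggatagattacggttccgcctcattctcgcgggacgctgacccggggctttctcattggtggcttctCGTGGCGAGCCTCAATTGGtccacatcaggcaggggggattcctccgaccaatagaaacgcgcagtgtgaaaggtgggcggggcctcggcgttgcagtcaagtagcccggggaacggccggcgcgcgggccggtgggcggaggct
Xbp1, chr14:84604373-84604622, forward strand: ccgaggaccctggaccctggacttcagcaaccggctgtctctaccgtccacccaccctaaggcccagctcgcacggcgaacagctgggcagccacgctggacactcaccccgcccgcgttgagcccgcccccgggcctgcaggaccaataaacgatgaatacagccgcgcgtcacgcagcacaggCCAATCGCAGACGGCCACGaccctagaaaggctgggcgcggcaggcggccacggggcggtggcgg
Herpud1, chr19:10614708-10614957, reverse strand: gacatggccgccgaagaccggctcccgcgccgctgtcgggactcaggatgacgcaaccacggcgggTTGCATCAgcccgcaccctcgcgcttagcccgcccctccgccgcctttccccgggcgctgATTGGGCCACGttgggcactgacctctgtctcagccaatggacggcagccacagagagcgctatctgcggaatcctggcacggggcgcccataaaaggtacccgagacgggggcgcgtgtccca
Trib3, chr3:161275534-161275783, reverse strand: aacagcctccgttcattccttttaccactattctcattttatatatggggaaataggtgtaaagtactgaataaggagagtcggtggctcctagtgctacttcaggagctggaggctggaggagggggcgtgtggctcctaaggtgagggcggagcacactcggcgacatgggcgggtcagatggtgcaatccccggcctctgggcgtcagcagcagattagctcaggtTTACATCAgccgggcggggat

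In these windows the ERSE of Hspa5 lay at bases -43 to -25 from the start site, and that of Xbp1 at -65 to -47. Hsp90b1 carried 2 copies on opposite strands, at -176 to -158 and at -72 to -54. A window of 300 bases (250 before and 50 after the start) was found for 30 of the 35 members, and Pdia3, Pdia6, Manf, Ern1 and Atf6 had none. The ERSE was present in a window of 9 of these 30 members (30%), against 21 of all 27457 genes (0.0765%), which include the 9 members. Its carriers were 7 of 13 chaperones (Hspa5, Hsp90b1, Calr, Canx, Creld2, Dnajc3 and Ero1b), Derl3 and Xbp1, and none of the 9 ATF4 and CHOP targets. ERSE-II, which shares the letters CCACG and CCAAT with the ERSE, was found in Dnajb11, Herpud1 and Hyou1, against 17 of all genes (0.0619%). The ATF4 element stood in Trib3, Chac1, Nupr1 and Herpud1, 4 of 30 members (13.3%) against 4.16% of all genes. A match is a run of letters and not a shown binding site.

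Depth, recovered from the deposited values, was between 992618 and 7290961 reads per ASC library and between 76083827 and 119555051 per AD library, and the shallowest was ASC_HFS replicate 2. There a floor of 3 reads was equal to 10.9 normalized counts, so the rarest members are imprecise in ASC. Markers of the labelled cells were present in every library. The 10 mesenchymal progenitor markers took 0.651% to 0.963% of the reads in ASC and 0.370% to 0.676% in AD, so their ranges overlapped between stages. The 9 measured adipocyte markers took 0.0868% to 0.313% in ASC and 1.23% to 1.61% in AD. Libraries of 1 group differed beyond counting noise in every group, least in AD_HFS, where 28.8% of genes with at least 20 reads had a chi-square p under 0.05, against 73.1% in AD_C.

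In the precursors, the diet arms differed in the chaperones and not in one direction across the response. Of the 33 members, 7 were lower in HFS (Pdia4, Pdia6, Creld2, Sdf2l1, Hsp90b1, Hyou1 and Calr) and 4 were higher (Atf6, Ern1, Herpud1 and Dnajb9). No ATF4 or CHOP target was called. A gene was called when limma-trend, run on the log2 of the deposited values, gave it a p under 0.05 after Benjamini-Hochberg adjustment across the whole table. These 11 calls compare with 19.1% of all genes called in that contrast, 9.41% higher and 9.7% lower. The 16 chaperones had a median log2 difference (HFS minus C) of -0.73, the 7 ATF4 and CHOP targets one of 0.06, and all genes one of -0.04.

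**Figure D1:**
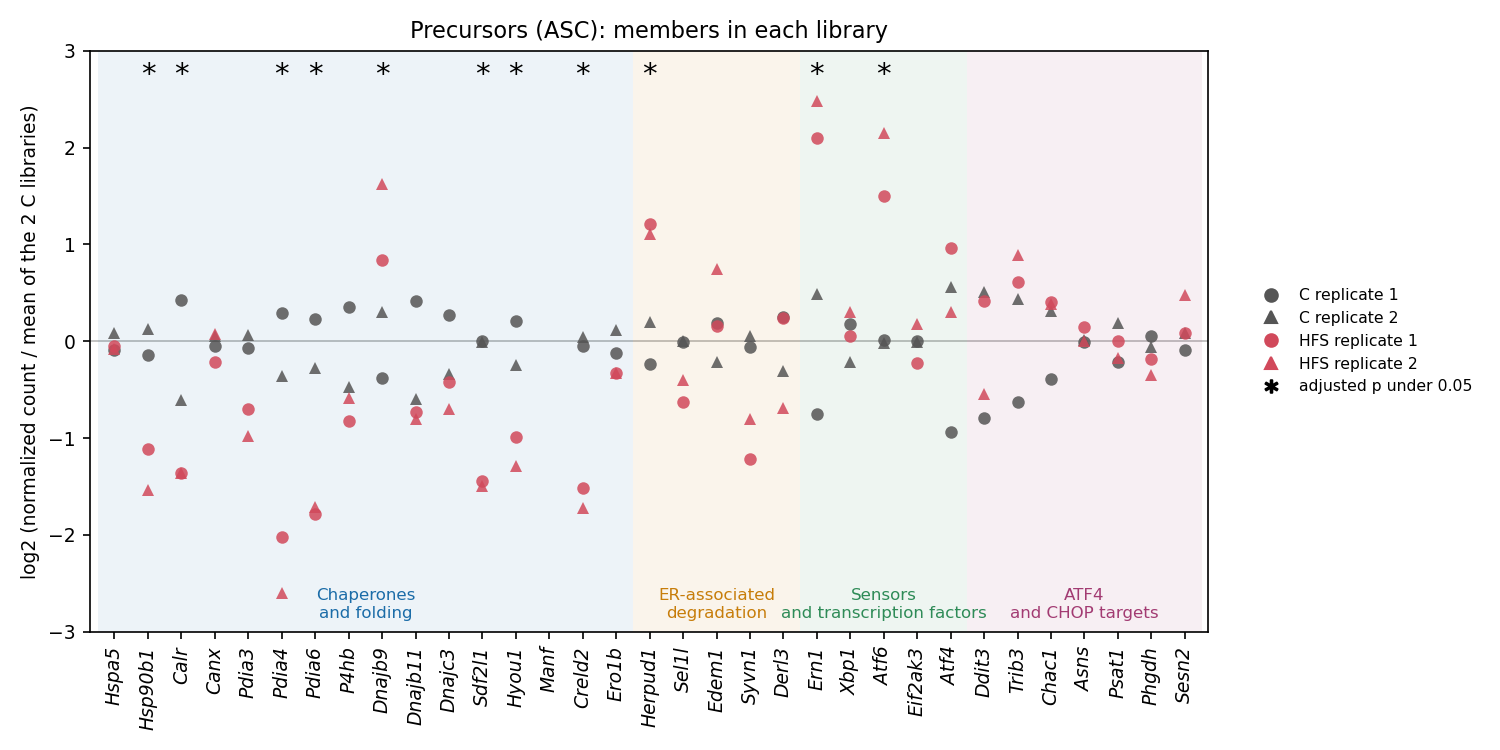
Each member's normalized count in the 4 ASC libraries, as log2 of its ratio to the mean of the 2 C libraries (vertical axis), by family (horizontal axis), with circles for replicate 1 and triangles for replicate 2, and stars for an adjusted p under 0.05; Manf, under 3 reads in 2 libraries, is not drawn. Most chaperones lie below the C libraries in both HFS libraries, down to Pdia4, while Ern1, Atf6, Herpud1 and Dnajb9 lie above them and the ATF4 and CHOP targets lie on both sides of 0.

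Among the sensors, Atf6, which encodes the transmembrane factor that is cut in the Golgi to reach the nucleus, had 132 and 129 normalized counts in the C libraries and 367 and 577 in the HFS libraries. Both HFS libraries were thus far above the C pair, which nearly coincided. The ratio of mean normalized counts was 3.63, and the log2 difference on the deposited scale was 1.45 ± 0.26 (SE, adjusted p = 0.00247). Ern1, the kinase and RNase that splices Xbp1, had 9.26 and 22.0 normalized counts in C and 66.7 and 87.0 in HFS. The groups did not overlap, although the 2 C values rest on 10 and 49 reads. Its ratio was 4.92 and its log2 difference 1.04 ± 0.23 (adjusted p = 0.00705). The deposited scale compresses differences of genes with few reads, which is why the log2 difference of Ern1 is smaller than its ratio.

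The other sensor and the transcription factors downstream were not called. Eif2ak3, which encodes PERK, had 74.1 and 73.5 normalized counts in C and 63.0 and 83.4 in HFS, and its groups overlapped. Xbp1 had 503 and 383 in C and 459 and 548 in HFS, also with overlap (log2 difference 0.17 ± 0.27, adjusted p = 0.700). The counts sum all forms of the Xbp1 transcript. Atf4 had 1734 and 4910 normalized counts in C and 6495 and 4105 in HFS. Its first C library stood far below the other 3, and the log2 difference of 0.80 ± 0.45 did not pass (adjusted p = 0.232).

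Pdia4, a disulfide isomerase of the ER lumen, fell most among the chaperones. It had 1855 and 1181 normalized counts in the C libraries against 374 and 250 in the HFS libraries. It was 4.87-fold lower in HFS (log2 difference -2.05 ± 0.31, adjusted p = 0.000636). Pdia6, another isomerase, which is also known to bind IRE1, had 2515 and 1777 in C and 623 and 656 in HFS. It was 3.35-fold lower (log2 difference -1.63 ± 0.30, adjusted p = 0.00273). In both isomerases even the lower C library was above the higher HFS library by more than the spread within either pair. Pdia3, the isomerase that works with the lectin chaperones, had 3571 and 3937 in C and 2307 and 1900 in HFS, without overlap, yet it missed the threshold (adjusted p = 0.0935).

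Creld2 and Sdf2l1 are small ER proteins whose genes are known to be induced by ER stress, and both had almost the same value in the 2 libraries of a group. Creld2 had 255 and 271 normalized counts in C and 91.7 and 79.8 in HFS. It was 3.07-fold lower in HFS (log2 difference -1.16 ± 0.23, adjusted p = 0.00411). Sdf2l1, a partner of the co-chaperone encoded by Dnajb11, had 206 and 204 in C and 75.5 and 72.5 in HFS. It was 2.77-fold lower (log2 difference -1.00 ± 0.22, adjusted p = 0.00823). In the shallowest library these values rest on 22 reads of Creld2 and 20 of Sdf2l1.

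Hsp90b1, the ER form of the HSP90 chaperones, had 5076 and 6130 normalized counts in C and 2593 and 1933 in HFS. Every HFS value was below every C value, a 2.48-fold difference (log2 difference -1.29 ± 0.34, adjusted p = 0.0189). Hyou1, the exchange factor that recharges BiP with ATP, had 750 and 547 in C and 327 and 265 in HFS (2.19-fold lower, adjusted p = 0.0225). Calr, a calcium-binding lectin chaperone, had 12468 and 6072 in C and 3622 and 3601 in HFS. Its HFS libraries coincided while its C libraries differed, and its call was the least firm of the 7 (log2 difference -1.25 ± 0.40, adjusted p = 0.0440). On the log2 of the recovered counts it was not called (adjusted p = 0.0700).

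Hspa5, whose product BiP is the central chaperone of the ER and the usual readout of unfolded protein, was not among the genes that fell. It had 5287 and 5935 normalized counts in C and 5414 and 5302 in HFS. All 4 values overlap, and the log2 difference was -0.06 ± 0.35 (adjusted p = 0.925). Canx, the membrane-bound relative of Calr, was likewise not called, with 2158 and 2317 in C and 1924 and 2353 in HFS. In 4 more folding genes both HFS libraries lay below both C libraries without a call: P4hb (ratio 0.616), Dnajb11 (0.588), Dnajc3 (0.683) and the oxidase gene Ero1b (0.798).

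Dnajb9 was the single chaperone gene to rise. Its product is a co-chaperone of BiP that is known to restrain IRE1 and to pass misfolded proteins to degradation. It had 156 and 251 normalized counts in C and 362 and 627 in HFS. The groups did not overlap although each pair was spread, and the ratio was 2.44 (log2 difference 1.05 ± 0.29, adjusted p = 0.0245). Manf, which encodes a secreted ER stress protein, was near absent from these libraries, with 0, 5, 13 and 0 reads, so no ratio is given. Counted over the 16 chaperones, 13 had groups that did not overlap, 12 of them lower in HFS, where 61% of all genes did not overlap and 32.5% did so with HFS lower.

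Of the 5 degradation genes, only Herpud1 was called (20%, where 19.1% of all genes were). It encodes a membrane protein that gathers the ubiquitin ligase complex, and it had 251 and 340 normalized counts in C and 682 and 638 in HFS. Both HFS libraries stood above the C pair by a ratio of 2.23 (log2 difference 1.02 ± 0.26, adjusted p = 0.0164). Syvn1, the ligase itself, lay the other way, with 152 and 164 in C and 68.0 and 90.7 in HFS, and missed the threshold (log2 difference -0.66 ± 0.23, adjusted p = 0.0565). Its adaptor Sel1l had a ratio of 0.704 and Edem1, which directs glycoproteins to the complex, one of 1.39, and neither was called. Derl3, a channel component, had 2 to 22 reads per library.

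The targets of ATF4 and CHOP showed no call among the 7 measured, by limma-trend or by limma-voom with all 4 libraries, and 1 of them had an unadjusted p under 0.05. Ddit3, the CHOP gene, had 213 and 527 normalized counts in C and 495 and 254 in HFS. The spread within each diet exceeded the difference between diets (log2 difference 0.06 ± 0.36, adjusted p = 0.930). Trib3, a pseudokinase gene induced by ATF4 and CHOP, had 123 and 256 in C and 290 and 352 in HFS. The groups did not overlap, but the log2 difference of 0.65 ± 0.28 did not pass (adjusted p = 0.124 by limma). Without replicate 2 of ASC_C, limma-voom called Trib3 and Ddit3 higher in HFS, so the lack of a call in these targets depended on that library. Asns, the asparagine synthetase, had 226 and 230 in C and 252 and 228 in HFS, a ratio of 1.05. Psat1 and Phgdh, which make serine, had ratios of 0.947 and 0.833, the glutathione-degrading enzyme Chac1 had 1.32, and the mTORC1 inhibitor Sesn2 had 1.23.

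The calls in ASC depended on single libraries. In the limma-trend fits that follow, 94 to 352 genes had zero variance, and the prior degrees of freedom fell from 11.7 to between 1.54 and 3.85. A filter at a mean value of at least 50 changed the outcome of these limma-trend fits, as given at the end. With any 1 library left out, limma-trend called no gene of the whole table, and limma-voom on the recovered reads called 13 members (22.8% of all genes) without replicate 1 of ASC_C and 18 (25.5%) without replicate 2. It called 5 (7.6% of all genes) without replicate 1 of ASC_HFS and 6 (9.86%) without replicate 2. The 7 members added without replicate 2 of ASC_C were Atf4, Ddit3, Trib3, Dnajb11, P4hb, Pdia3 and Syvn1, so that fit no longer separated called chaperones from uncalled ATF4 genes. All 11 members called with 4 libraries kept their direction in each of these fits. Atf6, Ern1, Pdia4 and Pdia6 were called in all 4 of the limma-voom fits.

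Other genes of the pathway, from lists that are not members, followed the same division between folding and ATF4 genes only in part. Of 28 further ER folding genes, 17 were lower in HFS precursors and none was called higher, with a median log2 difference of -0.91. Examples are P3h1, which hydroxylates collagen (ratio 0.292), the collagen chaperone Fkbp10 (0.359), the thioredoxin-like Erp29 (0.325) and the receptor chaperone Mesd (0.352). Of 33 further genes of degradation and the secretory pathway, 13 were lower and 1, Sec23b, was higher. Ostc of the oligosaccharyl transferase had a ratio of 0.231, Ssr1 of the translocon 0.291, Edem2 0.194 and the translocon subunit Sec61g 0.350. Among 23 further sensors and regulators, Eif2ak1, Creb3 and Mbtps2 were lower and Ppp1r15b, which restores translation by dephosphorylating eIF2, was higher (ratio 2.98). These lists, in the order given, had 60.7%, 42.4% and 17.4% of their genes called, against 19.1% of all genes in ASC. The share of the further sensors and regulators was thus no higher than that of all genes.

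The further ATF4 targets moved in both directions. Of 30 measured, 9 were higher in HFS precursors and 4 were lower, with a median log2 difference of 0.46. These calls were 43.3% of the list, against 19.1% of all genes. Gdf15, a stress-secreted hormone, had 54.7 and 90.6 normalized counts in C and 645 and 801 in HFS, and Pmaip1, a pro-apoptotic gene, had 44.5 and 94.1 in C and 340 and 522 in HFS. Both HFS libraries stood above both C libraries in each gene. Stc2, a secreted glycoprotein gene, lay the other way with 1706 and 1488 in C and 163 and 131 in HFS, as did the mitochondrial folate enzyme Aldh1l2 with 371 and 217 in C and 61.7 and 32.6 in HFS. Several of the targets that rose, such as Atf3, Sqstm1 and Slc7a11, are known to respond to other stress factors as well. Which factor acted on them here was not tested.

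**Figure D2:**
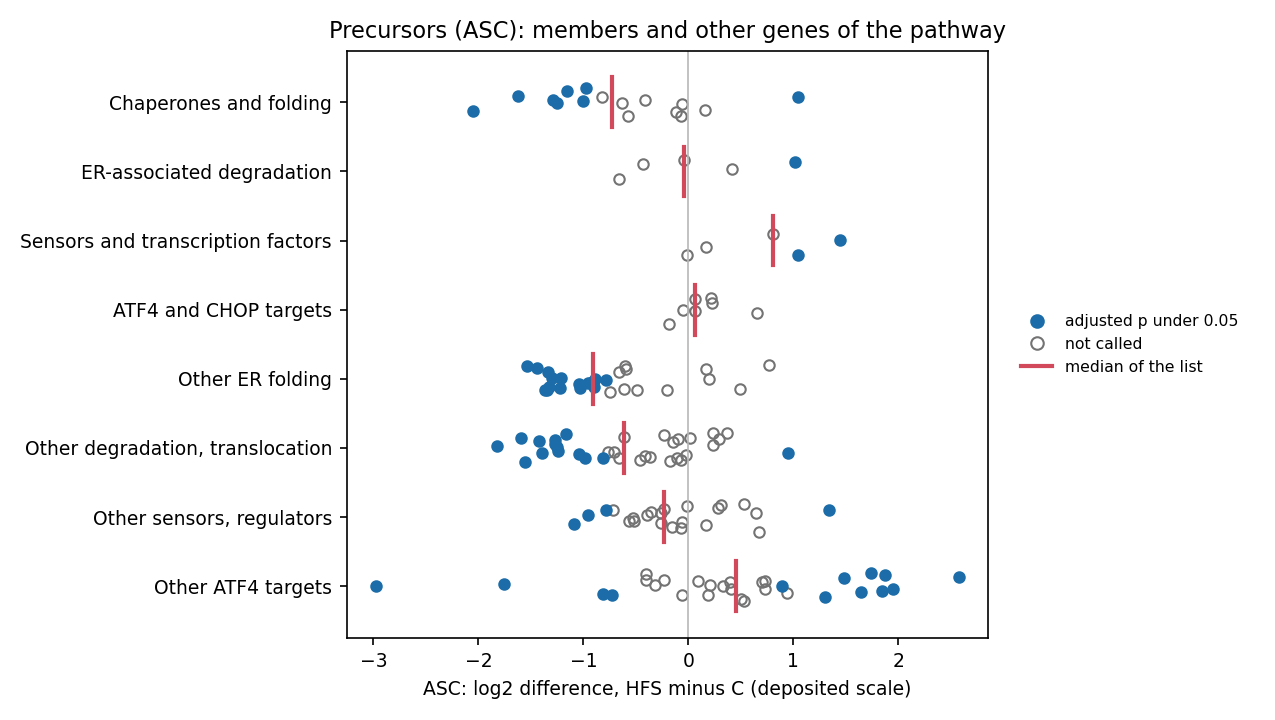
Log2 difference of each gene in ASC, HFS minus C on the deposited scale (horizontal axis), for the 4 member families and 4 lists of other pathway genes (rows), with filled points at an adjusted p under 0.05, open points otherwise, and a red bar at each list's median. The medians of the chaperones (-0.73) and of the other ER folding genes (-0.91) lie below 0, and those of the ATF4 and CHOP targets (0.06) and the other ATF4 targets (0.46) above it.

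Marker genes of other cell types moved with the diet in the same ASC libraries. Of 14 macrophage and myeloid markers, 11 were higher in HFS and their summed share of reads was 0.115% and 0.119% in C and 0.329% and 0.354% in HFS. Of 11 mammary and epithelial markers, 8 were higher, and the 10 that both tables list took 0.0119% and 0.0161% in C and 0.147% and 0.164% in HFS. Endothelial markers (7 of 9 higher) took 0.0275% and 0.0585% in C and 0.125% in both HFS libraries. Of 5 B and plasma cell markers, 2 were higher, and the 3 that both tables list took 0.00195% and 0.00279% in C and 0.0133% and 0.0146% in HFS. Of 9 adipocyte markers, 4 were higher (Adipoq, Lep, Cidec and Lipe, with ratios of 3.13, 4.28, 3.34 and 2.33), while their summed share overlapped, with 0.0868% and 0.313% in C and 0.295% and 0.218% in HFS. Of 8 smooth muscle and pericyte markers, Acta2 and Tagln were lower and Rgs5 was higher, and the sum took 0.0537% and 0.0449% in C and 0.0273% and 0.0186% in HFS. The 10 mesenchymal progenitor markers (4 higher, 3 lower) took 0.963% and 0.846% in C and 0.651% and 0.655% in HFS. Most reads of that list were from Dcn, which was not called (21709 of 32147 in ASC_C replicate 1). The called markers went both ways. Pi16, Cd34, Dpp4 and Eng were higher (ratios 6.64, 4.93, 4.91 and 2.21), and Pdgfra, Lum and Thy1 were lower (0.274, 0.209 and 0.205). No measured marker was at 0 in all libraries of a table. Their part in the chaperone and sensor differences was not tested, and in bulk RNA fewer cells of a type and less RNA per cell cannot be told apart.

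As a share of all reads of the 14018 genes that both tables list, the 16 chaperones took 1.36% and 1.01% in ASC_C and 0.583% and 0.586% in ASC_HFS. In the adipocytes they took 0.673% and 0.749% in AD_C and 0.671% and 0.668% in AD_HFS. The ASC_C libraries therefore stood above the other 6, which lay close together. The 7 ATF4 and CHOP targets took 0.0372% to 0.0522% in the ASC libraries and 0.0379% to 0.0395% in the AD libraries, with no such step. The further ATF4 targets (30 genes) did show a step, with the ASC_HFS libraries highest. They took 0.506% and 0.636% in ASC_C, 0.955% and 1.15% in ASC_HFS, and 0.313% to 0.455% in AD. The further ER folding genes repeated the pattern of the chaperones, with 1.06% and 0.683% in ASC_C, 0.333% and 0.313% in ASC_HFS, and 0.453% to 0.506% in AD. The tables were normalized separately, so these shares are set side by side across stages without a test.

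**Figure D3:**
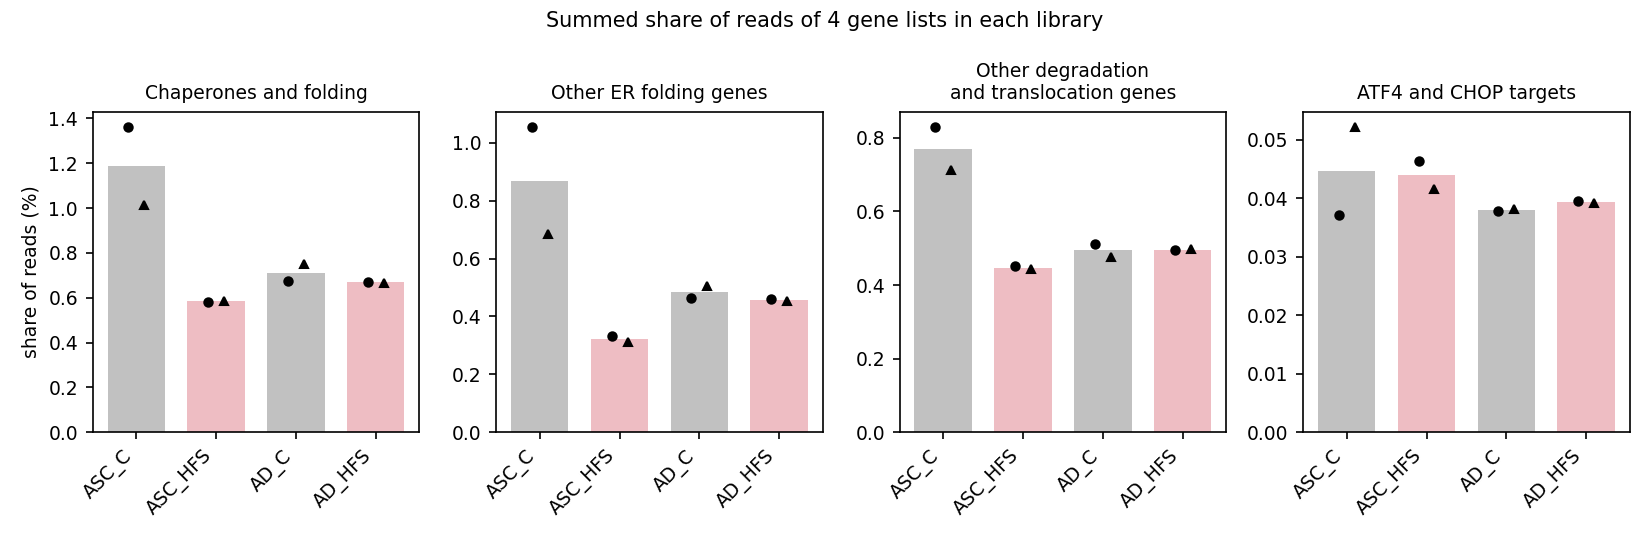
Summed share of reads (vertical axis, percent of the reads of the genes both tables list, from 0) of 4 gene lists in the 4 groups, with bars for the mean of 2 libraries, circles for replicate 1 and triangles for replicate 2. The chaperones and the other ER genes are highest in both ASC_C libraries, and the ATF4 and CHOP targets show no such step. The other ATF4 targets are not drawn.

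In the adipocytes no member was called between the diets. Of the 33 members, 0 passed, against 1.34% of all genes (1.31% higher, 0.0329% lower), and 3 had an unadjusted p under 0.05 by limma-trend (Atf6, Psat1 and Sdf2l1) where 13.9% of all genes did. limma-voom also called 0 members. The median log2 difference was -0.04 for the chaperones, -0.09 for the ATF4 and CHOP targets and -0.01 for all genes. Groups did not overlap in 15 of 33 members, where 47.7% of all genes did not. These libraries are deep, so counting error is small for all members but Manf.

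Atf6 was the member with the smallest p in AD. It had 6750 and 6531 normalized counts in C and 8368 and 8807 in HFS. Both HFS libraries were higher, by a ratio of 1.29 (log2 difference 0.36 ± 0.09, adjusted p = 0.185). Ern1 had 1180 and 1048 in C and 1118 and 1093 in HFS, and Eif2ak3 had 2623 and 2942 in C and 2722 and 2798 in HFS, each with the HFS pair inside the range of the C pair. Xbp1 had 11152 and 11090 in C and 12508 and 12801 in HFS, without overlap and at a ratio of 1.14 (adjusted p = 0.443).

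The chaperone genes that fell in the precursors were not called in the adipocytes, where the C libraries of some, such as Hyou1 and Pdia6, were far apart. Pdia4 had 22104 and 23562 normalized counts in AD_C and 21922 and 21642 in AD_HFS, a log2 difference of -0.07 ± 0.09. Pdia6 had 36842 and 46266 in C and 41185 and 38503 in HFS, with overlap. Hsp90b1 had 77170 and 88406 in C and 81692 and 81098 in HFS, and Calr had 122937 and 137909 in C and 128135 and 127262 in HFS, again inside the range of C. Creld2 had 2627 and 2519 in C and 2690 and 2662 in HFS, a ratio of 1.04. Hyou1 had 21377 and 14773 in C and 16246 and 15712 in HFS. Sdf2l1 lay the other way from the precursors, with 2673 and 3083 in C and 3606 and 3509 in HFS (ratio 1.24, log2 difference 0.29 ± 0.11, adjusted p = 0.355). Hspa5 had 83227 and 85559 in C and 79675 and 78747 in HFS, a ratio of 0.939 that was not called (adjusted p = 0.766).

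Dnajb9 had 3843 and 2882 normalized counts in AD_C and 2744 and 3121 in AD_HFS, and Herpud1 had 5551 and 4155 in C and 4615 and 4674 in HFS. Both genes, higher with HFS in the precursors, thus overlapped between diets here. Atf4 had 33146 and 20117 in AD_C and 19989 and 19929 in AD_HFS. Only AD_C replicate 1 stood apart from the other 3 libraries, and the log2 difference was -0.37 ± 0.25 (adjusted p = 0.584). Trib3 had the same shape, with 2977 and 1736 in C and 1508 and 1504 in HFS (ratio 0.639, adjusted p = 0.441), and Ddit3 had 2779 and 2100 in C and 2314 and 2198 in HFS. Asns had 8638 and 10871 in C and 9885 and 9884 in HFS, and Psat1 had 12938 and 13969 in C and 16414 and 16515 in HFS (ratio 1.22, adjusted p = 0.280).

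**Figure D4:**
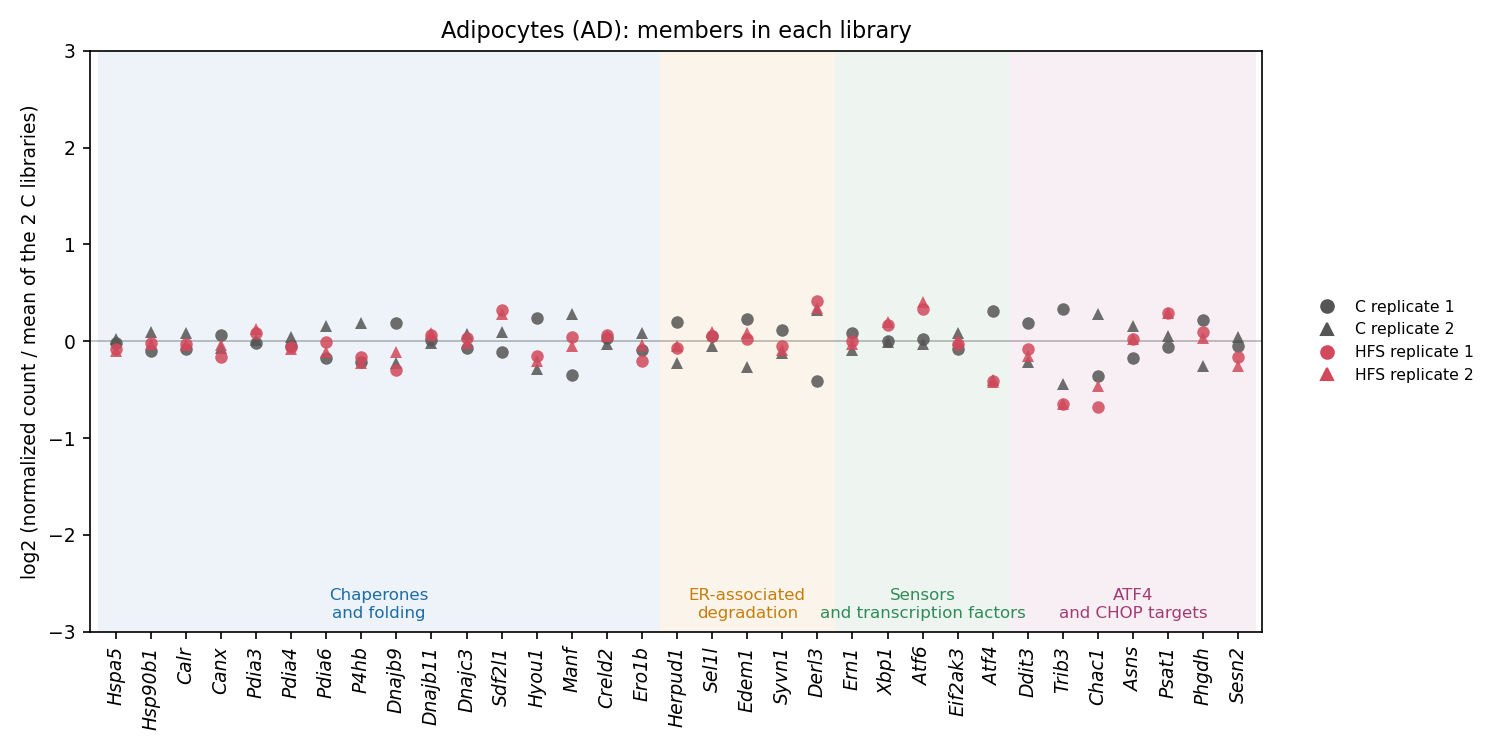
Each member's normalized count in the 4 AD libraries, as log2 of its ratio to the mean of the 2 C libraries (vertical axis, on the range used for the precursors), by family (horizontal axis), with circles for replicate 1 and triangles for replicate 2. No member has an adjusted p under 0.05, the HFS libraries lie within 1 log2 unit of the C mean throughout, and the 2 HFS libraries nearly coincide for most members.

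The absence of calls in AD did not hold without either C library. Without AD_C replicate 1, limma-trend called 14 members (8 higher, 6 lower), and without AD_C replicate 2 it called 18 (7 higher, 11 lower). The 3 libraries that remain then hold 1 C library, which is assumed to vary as the close HFS pair does, and 7106 and 9830 genes of the table were called. The prior degrees of freedom of the variance rose from 2.77 to 28600 in the first of these fits and to infinity in the second, and which change brought the calls was not tested. limma-voom called 16 members (39.6% of all genes) and 18 (50.6%) in the same subsets. Leaving out either AD_HFS library, or counting the 2 as 1, left 0 members called. Of the other pathway lists (ER folding, degradation and secretory pathway, sensors and ATF4 targets), none had a gene called in AD by limma-trend. The genes measured were 28, 33, 24 and 32, and 3, 0, 1 and 0 of them had an unadjusted p under 0.05 by that test. Macrophage markers took 0.0431% and 0.0815% of reads in AD_C and 0.384% in both AD_HFS libraries. Of the 14, 9 were called higher, where 1.31% of all genes were, and their part in the member values was not tested.

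Whether the diet difference itself changed with differentiation was tested in all 8 libraries over the 14018 shared genes. It did for 8 of the 33 members, where 12.5% of the shared genes were called (7.53% with a positive and 4.93% with a negative difference of differences). An unadjusted p under 0.05 by limma-trend was found for 14 members and for 30.2% of the shared genes. Given as the AD difference minus the ASC difference, it was positive for 5 chaperones. The values were 1.99 ± 0.34 for Pdia4 (SE, adjusted p = 0.00913 by limma), 1.57 ± 0.31 for Pdia6 (0.0148), 1.29 ± 0.22 for Sdf2l1 (0.00850), 1.27 ± 0.34 for Hsp90b1 (0.0384) and 1.21 ± 0.22 for Creld2 (0.0100). It was negative for the 3 sensor and degradation genes that were higher in HFS precursors: -1.09 ± 0.28 for Atf6 (0.0356), -1.06 ± 0.27 for Herpud1 (0.0351) and -1.05 ± 0.26 for Ern1 (0.0318). Each of the 8 was called between the diets in the precursors and not in the adipocytes. The fit takes 1 variance per gene over both stages, although the spread within pairs was unequal (log2 SD 0.275 in ASC_HFS and 0.0680 in AD_HFS). Compared with ASC alone, the SE was slightly smaller for Creld2, Sdf2l1 and Hsp90b1 and larger for Pdia4, Pdia6, Atf6, Herpud1 and Ern1. The SE and adjusted p of the interaction may therefore be too small.

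For Dnajb9 (-1.22 ± 0.37, adjusted p = 0.0607), Calr (1.23 ± 0.46, 0.111) and Hyou1 (0.82 ± 0.32, 0.118), all called in ASC, the difference between stages did not pass. Nor did it for any ATF4 or CHOP target, where Trib3 came nearest (-1.19 ± 0.41, adjusted p = 0.0828): it lay higher with HFS in ASC and lower in AD without a call in either. Hspa5 had an interaction of -0.03 ± 0.31 (adjusted p = 0.965). The deposited scales of the 2 tables are compressed to different extents, and on the log2 of the recovered counts all 8 members were still called. With the replicate number as a block, Atf6, Herpud1 and Hsp90b1 were not called and Dnajb9 was. Without either AD_HFS library only 1 member remained called, Pdia4. With any 1 of the other 6 libraries left out, 3 to 10 members were called, and Trib3 was among them without replicate 2 of AD_C or of ASC_C.

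**Figure D5:**
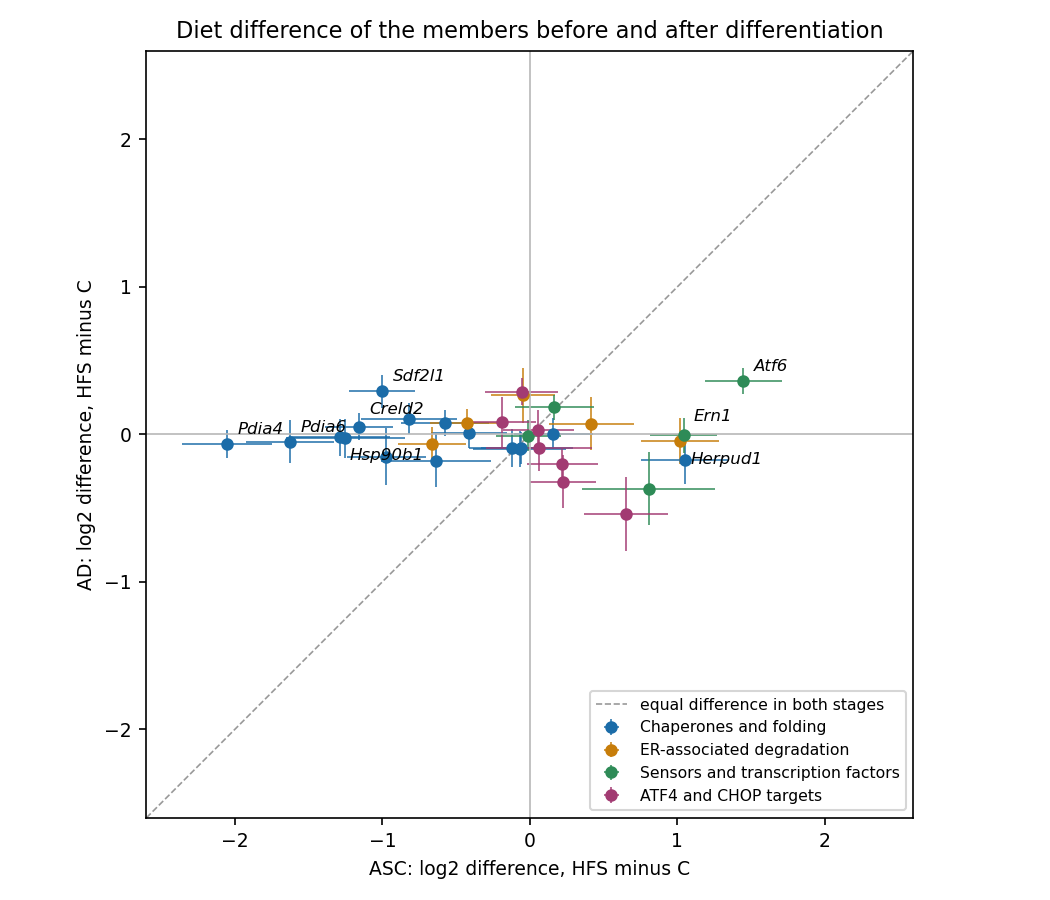
Diet difference of each member on the log2 scale, HFS minus C, in ASC (horizontal axis) against AD (vertical axis), coloured by family, with bars of 1 SE and names for the 8 members whose difference changed between stages; the dashed line marks equal differences. Members spread from -2.05 to 1.45 in ASC and from -0.54 to 0.36 in AD, so they lie along the horizontal axis.

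Read against the promoters printed above, carriers of the shared element were found among called and uncalled members. Of the 9 members with an ERSE, 3 were lower in HFS precursors (Hsp90b1, Calr and Creld2) and 6 were not called, among them Hspa5, Canx and Xbp1. Of the 7 further genes with an ERSE and a row in ASC, 2 were lower and 1 was higher. In that contrast 19.1% of all genes (9.7% lower) and 33.3% of all members were called. Pdia4, with the largest fall, and Sdf2l1 have no ERSE in their windows, which says only that these letters are not there. Herpud1, with ERSE-II and the ATF4 element, was higher, while Hyou1 and Dnajb11, which also carry ERSE-II, had ratios of 0.456 and 0.588. In AD none of the 9 was called, where 1.34% of all genes were. The counts are too small for a comparison between carriers and other members, and none was made.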

How the data were processed

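FastQC, STAR, featureCounts and DESeq2 are the tools named in the submitters' processing notes, without versions, with the build mRatBN7.2 (rn7). The labels name polyA RNA and also an rRNA depletion kit. The deposited values are a signal scaled within each of 2 tables by the authors: they behave as the base-2 antilog of variance-stabilized counts, with a lowest value of 34.7 in ASC and 107 in AD for genes without reads. Inverting that transformation gave whole reads for 100% of values (tolerance 1e-06), from which depths, normalized counts, ratios and shares were taken.

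Differences are on log2(deposited value + 1), tested with limma-trend (limma 3.58.1, R 4.3.3), two-sided, HFS against C within each table, and in 1 fit of all 8 libraries for the interaction. Benjamini-Hochberg adjustment ran over all genes tested. A mean value of at least 10 was required, which removed 0 genes. The limma-trend fit within each table was also run on simulated counts with 1 dispersion for all genes, whose outcome is not given here. The interaction and limma-voom fits were not run on simulated counts. Tables, promoters and figures were made with matplotlib 3.10.9, pandas 2.3.3 and numpy 2.4.6 in Python 3.11.15.

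Members, gene lists and the rule for named genes were chosen with earlier results of these data known. By that rule values per library are given for every called member and for 10 sensors, chaperones and targets, and up to 4 called genes with the smallest p are named per other list. Sec23b, Atf3, Sqstm1 and Slc7a11 were named after their values were seen. A further list of pathway genes is not reported here. Older list symbols were matched through RefSeq synonyms. The labels do not say whether replicate numbers pair the libraries, and the values cannot settle it. Deviations of same-numbered libraries correlated at -0.123 in ASC and 0.00141 in AD, from 1 pair of libraries per diet. No column of values was left out (0 unused). Alternatives were other pseudocounts, filters, scalings and variance settings, limma-voom on recovered reads, a replicate block, all 8 libraries in 1 fit and each library left out.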

Additional observations from a re-analysis of the deposited data

Results flagged for a closer look

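The diet difference of 8 members differed between precursors and adipocytes by the test of the difference itself (limma-trend, 8 libraries, adjusted p under 0.05 over 14018 genes). As the AD difference minus the ASC difference on the log2 scale, it was 1.99 for Pdia4, 1.57 for Pdia6, 1.29 for Sdf2l1, 1.27 for Hsp90b1 and 1.21 for Creld2. These 5 chaperone genes were lower with HFS in the precursors. It was -1.09 for Atf6, -1.06 for Herpud1 and -1.05 for Ern1, which were higher with HFS in the precursors. Depth differed between the stages by more than 10-fold, and its part in these differences was not tested.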

How the results depend on the processing

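The 11 members called in ASC kept their direction under every alternative run, and all 11 stayed called under other pseudocounts, filters, scalings, robust moderation and all 8 libraries in 1 fit, while Calr was lost on the log2 of recovered counts. limma-voom added Pdia3 and Syvn1 (13 in all). The replicate block, which the labels do not support as pairing, called the same 11 in ASC, 0 members in AD (661 genes against 244) and 6 in the interaction against 8. Crossed pairs were added after seeing the data, because deviations of same-numbered ASC libraries had a weak negative correlation (-0.123). That fit called 15 members (the further 4 were Atf4, Trib3, Pdia3 and Syvn1), with 3634 genes called against 2731. With 1 library left out, ASC genes called ranged from 0 to 3643, members higher from 0 to 7 and lower from 0 to 11, the chaperone median from -1.117 to -0.485 and the ATF4 and CHOP target median from 0.002 to 0.300. The 0 comes from limma-trend, where genes without reads in the remaining pair had zero variance (94 to 352 genes) and the prior degrees of freedom fell from 11.7 to between 1.54 and 3.85. With a mean value of at least 50, a choice added after seeing the data, 6 and 15 members were called without replicate 1 and replicate 2 of ASC_C, and 10 and 7 without those of ASC_HFS, where 1048, 2088, 3428 and 1642 of 12321 genes were called in the same order. Atf4 and Trib3 were among the 15, and Atf6, Pdia4, Pdia6, Creld2 and Sdf2l1 were called in all 4 fits.

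In AD the genes called were 423 with all 8 libraries in 1 fit, 150 by limma-voom, 112 on the log2 of recovered counts, 95 with upper quartile scaling and 0 with the HFS pair averaged (857 at an unadjusted p under 0.05), and the cause was not tested. With 1 library left out they ranged from 0 to 9830, members higher from 0 to 8 and lower from 0 to 11, the chaperone median from -0.088 to 0.041 and the ATF4 and CHOP target median from -0.161 to -0.047. In the interaction these ranges were 425 to 2382 genes, 1 to 6 members positive and 0 to 4 negative. Of the members followed through the alternatives, signs turned for some that were uncalled and near 0. Ern1 in AD was 0.005 by limma-voom, and in ASC quantile normalization gave 0.028 for Eif2ak3 and -0.009 for Ddit3. With 1 library left out, ranges in ASC were -0.486 to 0.856 for Ddit3, -0.147 to 0.020 for Hspa5, -0.025 to 0.361 for Xbp1 and -0.227 to 0.201 for Eif2ak3. In AD they were -0.137 to 0.195 for Asns, -0.298 to 0.106 for Ddit3, -0.092 to 0.079 for Ern1, -0.094 to 0.072 for Eif2ak3 and -0.119 to 0.077 for Hsp90b1. On the log2 of recovered counts the median of all genes shifted to -0.0985 in ASC and to 0.158 in the interaction. Depth limits Manf and Derl3 in ASC, which were under 3 reads in 2 libraries and 1 library.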
